A study of Mus musculus with 6 samples.

Results

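The genes examined here carry the symbols of the nuclear subunits of respiratory chain complexes I to IV. They were chosen by symbol alone: Nduf followed by a, b, c, s or v and a number, Sdha to Sdhd, every Uqcr symbol with Cyc1, and Cox4 to Cox8, with symbols ending in -ps left out. This gave 69 genes of the 25239 in the count table, of which 37 belong to complex I, 4 to complex II, 9 to complex III and 19 to complex IV. The annotation gives 67 of them as protein-coding and 2, Ndufa11b and Ndufb4c, as processed pseudogenes. Ndufa4 was counted with complex IV, where its product is now placed. A filter on low counts left 65 of the 69 for testing, and the 4 that did not pass it were Ndufs5, Ndufa11b, Cox6a2 and Cox8b.

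Bulk RNA-seq was made from thyroid organoids grown from 1 mouse embryonic stem cell line and collected at day 31. All 3 groups carried doxycycline-inducible Nkx2-1 and Pax8 and a Braf V637E protein fused to ERT2 under a bovine thyroglobulin promoter, and all were differentiated with 5 days of doxycycline at 1 µg/ml and 2 weeks of 8-Br-cAMP. By the study's methods follicles were then enriched, and 8-Br-cAMP was also given during the treatments below. The cAMP group (2 libraries) received neither 4-hydroxytamoxifen nor inhibitors, and its control condition had ethanol as vehicle. The 4OHT group (2 libraries) received 1 µM 4-hydroxytamoxifen, which activates the ERT2 fusion, for 5 days. The PD+LY group (2 libraries) received 4-hydroxytamoxifen at the same dose together with 250 nM PD0325901, a MEK inhibitor, and 5 µM LY204002, given in the labels under that name and described by the study as a PI3K inhibitor, for 3 days. The labels do not give the days of 4-hydroxytamoxifen before the inhibitors. The study's methods state that every inhibitor treatment followed several days of it and continued it. By that protocol total exposure was longer in PD+LY than in 4OHT. The promoter limits the oncogene to cells that express thyroglobulin, wells were pooled within a sample, the cultures also hold non-thyroid cells, and nothing in the labels says that the replicates came from separate differentiations. The p-values therefore measure the spread between these libraries only.

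Complexes I and II take electrons from NADH and succinate, complex III passes them from ubiquinol to cytochrome c, and complex IV hands them to oxygen. Complexes I, III and IV pump protons as they do so, and ATP synthase uses the gradient. A few core subunits carry the flavins, iron-sulphur clusters and haems, and many small accessory subunits surround them. Several complex IV subunits exist in a broadly expressed form and in a form typical of muscle, lung or testis. The subunits encoded in mitochondrial DNA were not analysed here.

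Many promoters of these genes are known to hold sites for NRF1, GABP, YY1 or ERR factors, so the 300 bases around the start sites were read from RefSeq (GRCm38.p6), where 53 of the 69 genes had an entry that was used. The promoters of 5 genes on which the results below turn are shown 5′ to 3′ on the gene's strand: Uqcr11, Uqcrh and Cox6a1, which rose, Cox7a1, which rose and held no match, and Sdha, which did not pass the test in any comparison. Capitals mark matches on either strand to CGCANGCG (NRF1), CCGGAAG (GABP), AAGATGGC (YY1) or TCAAGGTCA (ERR).
Uqcr11, chr10:80406772-80407071 (- strand): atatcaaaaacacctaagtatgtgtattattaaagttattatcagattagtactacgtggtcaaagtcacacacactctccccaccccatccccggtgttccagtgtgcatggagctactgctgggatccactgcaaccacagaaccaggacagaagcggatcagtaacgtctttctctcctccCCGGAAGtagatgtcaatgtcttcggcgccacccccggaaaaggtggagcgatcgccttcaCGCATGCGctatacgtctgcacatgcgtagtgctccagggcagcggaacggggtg
Uqcrh, chr4:116075021-116075320 (- strand): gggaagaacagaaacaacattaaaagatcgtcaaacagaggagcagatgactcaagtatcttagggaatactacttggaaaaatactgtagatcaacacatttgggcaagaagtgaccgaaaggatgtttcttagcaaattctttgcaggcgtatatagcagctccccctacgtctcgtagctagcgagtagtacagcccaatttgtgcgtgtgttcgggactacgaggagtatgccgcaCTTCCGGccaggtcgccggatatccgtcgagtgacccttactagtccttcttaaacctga
Cox6a1, chr5:115348909-115349208 (- strand): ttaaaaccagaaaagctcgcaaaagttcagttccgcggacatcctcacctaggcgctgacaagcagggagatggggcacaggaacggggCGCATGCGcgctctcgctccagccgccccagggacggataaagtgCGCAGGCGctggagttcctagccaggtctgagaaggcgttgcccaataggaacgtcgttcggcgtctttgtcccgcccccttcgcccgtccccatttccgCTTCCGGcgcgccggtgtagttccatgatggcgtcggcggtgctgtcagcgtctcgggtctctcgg
Cox7a1, chr7:30183921-30184220 (+ strand): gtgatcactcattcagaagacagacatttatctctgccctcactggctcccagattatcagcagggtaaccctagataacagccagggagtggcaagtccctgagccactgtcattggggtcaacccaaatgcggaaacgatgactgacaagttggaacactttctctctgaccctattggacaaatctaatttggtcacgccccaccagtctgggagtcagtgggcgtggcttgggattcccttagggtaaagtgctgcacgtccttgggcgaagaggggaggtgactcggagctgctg
Sdha, chr13:74350191-74350490 (- strand): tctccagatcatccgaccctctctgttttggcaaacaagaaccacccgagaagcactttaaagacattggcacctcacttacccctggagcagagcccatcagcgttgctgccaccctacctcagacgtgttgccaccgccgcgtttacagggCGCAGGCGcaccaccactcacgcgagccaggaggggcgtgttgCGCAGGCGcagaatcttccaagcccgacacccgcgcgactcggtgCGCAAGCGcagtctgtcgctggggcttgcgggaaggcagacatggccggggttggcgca
The Uqcr11 promoter held 1 NRF1 and 1 GABP match, that of Uqcrh 1 GABP match, that of Cox6a1 2 NRF1 matches and 1 GABP match, and that of Sdha 3 NRF1 matches. Among the 51 tested subunit genes with a promoter, 29.4% held the NRF1 letters, 21.6% the GABP letters, 13.7% the YY1 letters and 1.96% the ERR letters. Over all 27025 genes of the promoter table the shares were 9.22%, 9.93%, 3.19% and 0.466%, and over the 11974 tested genes with a promoter they were 17.7%, 18.1%, 4.69% and 0.301%. These shares are descriptions of letters in a window, without a test.

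The libraries held 14898409 to 20637959 counts. All changes below come from 1 edgeR quasi-likelihood model of all 6 libraries, with Benjamini-Hochberg adjustment over the 15256 genes tested, and a gene was called where the adjusted p was under 0.05. Levels are CPM, the counts of each library scaled to a common total. Of the 12 thyroid markers all were detected, with a summed level of 1110 to 1660 CPM in cAMP, 576 to 769 CPM in 4OHT and 1000 to 2010 CPM in PD+LY. The 12 mesenchymal markers summed to 1380 to 1520, 2470 to 2620 and 4240 to 4990 CPM in the same order. That sum was carried by collagen genes: in PD+LY against cAMP 5 of the 12, among them Col1a1, Col1a2 and Col3a1, rose and 3, among them Vim, fell, and against 4OHT 4 rose and 4 fell. The 8 epithelial markers summed to 1110 to 1210, 850 to 948 and 799 to 845 CPM. Of these 8, 7 fell in PD+LY against cAMP, and 6 fell and 1 rose against 4OHT. In 4OHT against cAMP 3 of them fell, while 4 mesenchymal markers rose and 0 fell. All 10 pluripotency markers were detected as well, at 4020 to 4100, 4230 to 4400 and 4220 to 4530 CPM, and in PD+LY against cAMP 4 rose and 3 fell. The part of these marker changes in the results below was not tested, and in bulk RNA fewer cells of a type and less RNA per cell cannot be told apart.

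The subunit genes together took 0.652% and 0.682% of the counts in the cAMP libraries, 0.782% and 0.762% in the 4OHT libraries and 0.752% and 0.798% in the PD+LY libraries. Both treated groups lay above cAMP without overlap and overlapped each other. Complex IV took 0.216% and 0.224% in cAMP, 0.261% and 0.255% in 4OHT, and 0.264% and 0.275% in PD+LY, with PD+LY the highest and no overlap. Complex III took 0.124% and 0.128%, 0.148% and 0.144%, and 0.132% and 0.142%, with 4OHT the highest and no overlap. Complex II, which links the citric acid cycle to the chain, spanned only 0.0697% to 0.0743% over the 6 libraries. With 2 libraries against 2, an exact two-sided permutation test of such a share cannot go below p = 0.333, so these shares were given without a test.

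Per kilobase of transcript, the median tested subunit of complex IV lay at 215 CPM per kb, that of complex III at 168, that of complex II at 102 and that of complex I at 80.8. The highest subunit in each complex was Ndufa7 (367 CPM per kb), Sdhd (131), Uqcrh (314) and Cox4i1 (587), all means over the 6 libraries. Ndufs5 had 0 counts in every library, whereas the symbol Ndufs5-ps, which the selection left out, held 155 to 340 counts. An annotated pseudogene matched Ndufs5 at 99.4% identity over at least 100 bases, so the 0 does not show that Ndufs5 was absent. Look-alike pseudogenes were annotated for 28 of the 69 genes, and the exons of 21 overlapped another gene, which counting without strand cannot separate.

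The first comparison set organoids given 4-hydroxytamoxifen, which activates the Braf fusion, against the cAMP group. No library came from organoids without the fusion given this drug, so effects of the drug and of the fusion cannot be told apart. In 4OHT against cAMP, 10 of 65 subunit genes rose and 0 fell by edgeR (0 also fell by DESeq2), a share of 15.4%, against 4.04% of all genes tested that rose and 4.35% that fell. At an unadjusted p under 0.05, 30 of the 65 (46.2%) passed in either direction, against 24.0% of all genes. Of the called genes 0 reached 2-fold, against 1.17% of all genes up and 1.51% down at that size. The median log2 fold change was 0.23 for the subunit genes and 0 for all genes, and 59 of the 65 values lay above 0. The risen genes were spread over complex I (3 of 35), complex III (2 of 9) and complex IV (5 of 17), and complex II had 0 of 4.

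Cox7a1, the form of a small complex IV subunit typical of heart and skeletal muscle, was at 15.5 and 13.9 CPM in cAMP, 26.8 and 26.6 in 4OHT and 21.7 and 27.6 in PD+LY. Both treated groups lay above cAMP and overlapped each other. The log2 fold change in 4OHT was 0.86 ± 0.16 (SE; n = 2 libraries a group here and below), with an edgeR adjusted p of 0.00662. Its broadly expressed counterpart Cox7a2 was at 136 and 128, 145 and 127, and 151 and 147 CPM, and was not called. Of 13 heart and skeletal muscle markers 9 were tested, 0 rose in any comparison and 5 fell in PD+LY against cAMP, and their summed level was 27.2 to 30.8 CPM in cAMP, 31.7 to 33.2 in 4OHT and 22.1 to 22.7 in PD+LY.

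Uqcrq, a small complex III subunit near the ubiquinone site, was at 47.0 and 57.1 CPM in cAMP, 83.3 and 76.7 in 4OHT and 58.5 and 64.9 in PD+LY. The 4OHT libraries stood above all the others. It rose by 0.62 ± 0.12 in 4OHT (adjusted p = 0.0106) and fell by 0.37 ± 0.12 when PD+LY was set against 4OHT (adjusted p = 0.0443), a fall that was lost with the length or GC trend removed (adjusted p = 0.0818 and 0.0649). Ndufs8, a core complex I subunit that holds iron-sulphur clusters, was at 62.8 and 62.8, 96.1 and 83.9, and 70.6 and 77.8 CPM. It rose by 0.52 ± 0.11 in 4OHT (adjusted p = 0.0137) and was the only core complex I subunit called in any of the 3 comparisons. Cox8a, a small complex IV subunit, was at 156 and 167, 211 and 218, and 166 and 189 CPM, and it rose by 0.41 ± 0.10 in 4OHT (adjusted p = 0.0236).

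The remaining risen genes rose by less than Ndufs8. Ndufa3 (0.48), Cox6a1 (0.44), Uqcr10 (0.43), Ndufb8 (0.38), Cox6c (0.35) and Cox5b (0.33) had edgeR adjusted p-values of 0.0231 to 0.0462. In each of these 6 the 4OHT libraries lay above the cAMP libraries without overlap, as in 47 of the 65 subunit genes and 4445 of all 15256. With the length trend described below removed, these 6 genes and Cox8a lost the call (adjusted p = 0.104 to 0.224), and Cox7a1, Uqcrq and Ndufs8 kept it. The calls of this comparison rested on few libraries. Without cAMP replicate 1 there were 1, without cAMP replicate 2 there were 3, and without either 4OHT library there were 0, whereas leaving out PD+LY replicate 1 or 2 gave 22 each.

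**Figure D1:**
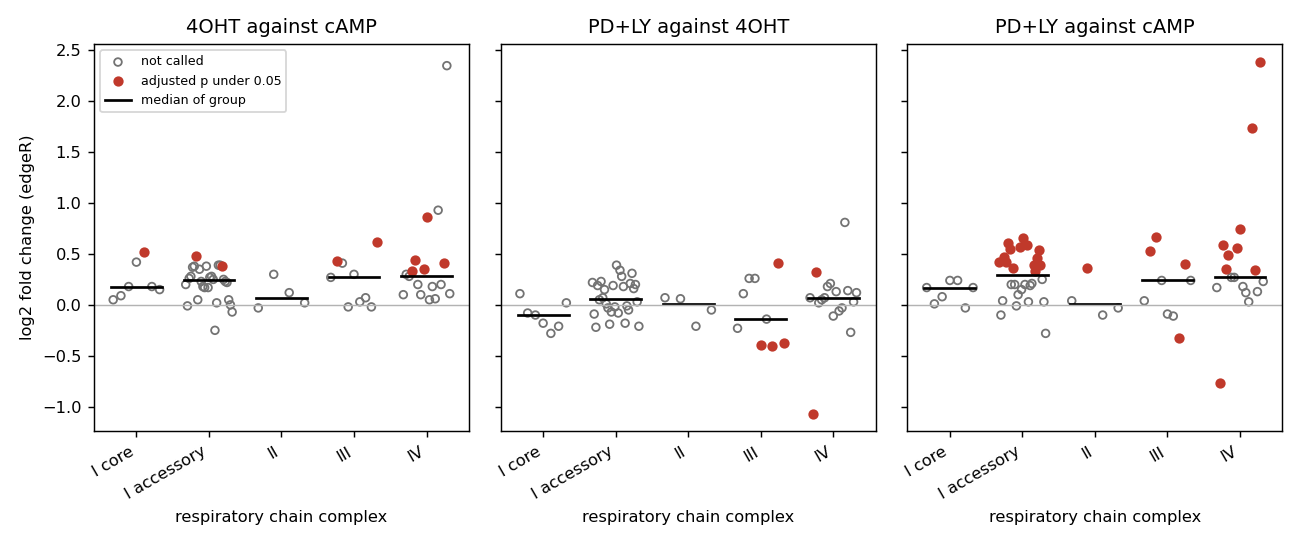
Log2 fold change (vertical axis) of the 65 tested subunit genes in the 3 comparisons, grouped along the horizontal axis by complex. Each point is a gene, filled where the edgeR adjusted p was under 0.05, and the bars are group medians. The called genes of 4OHT against cAMP all lie above 0, those of PD+LY against cAMP are mostly above 0, and PD+LY against 4OHT has few. The uncalled point at 2.35 is Cox8c, whose cAMP libraries held 2 and 3 counts, so its height depends on the fit and is not a bound.

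The second comparison set the PD+LY group against the 4OHT group, which by the study's protocol also differ in days of 4-hydroxytamoxifen. In PD+LY against 4OHT, 2 of 65 subunit genes rose and 4 fell, whereas 10.7% of all genes rose and 12.1% fell. The median was 0.03 for the subunit genes and 0.01 for all genes. At 2-fold, 0 rose and 1 fell, against 2.35% and 4.90% of all genes. Complexes I and II had 0 calls in this comparison, in which 18 of the 65 (27.7%) passed an unadjusted p of 0.05, against 36.8% of all genes.

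Cox5a, a subunit in the outer part of complex IV, was at 160 and 171 CPM in cAMP, 208 and 194 in 4OHT and 247 and 254 in PD+LY. The 3 groups did not overlap, and PD+LY was the highest. It rose by 0.32 ± 0.09 against 4OHT (adjusted p = 0.0246). Uqcrh, the hinge protein of complex III, was at 151 and 161, 146 and 162, and 197 and 214 CPM. The cAMP and 4OHT libraries overlapped and the PD+LY libraries stood above both, with a rise of 0.41 ± 0.10 against 4OHT (adjusted p = 0.00942).

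Complex III also held 3 of the 4 genes that fell. Uqcrfs1, the Rieske iron-sulphur protein that passes electrons towards cytochrome c1, was at 104 and 107 CPM in cAMP, 107 and 113 in 4OHT and 79.9 and 87.5 in PD+LY. The PD+LY libraries were the lowest, and it fell by 0.40 ± 0.10 against 4OHT (adjusted p = 0.012). Uqcrc1, a core protein of the matrix side of complex III, was at 272 and 279, 344 and 333, and 239 and 277 CPM. Its PD+LY libraries lay below 4OHT and overlapped cAMP, and it fell by 0.39 ± 0.09 (adjusted p = 0.0109). Cyc1, which carries the haem of cytochrome c1, and Uqcrc2 were not called in any comparison. The third that fell was Uqcrq, given above.

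Cox4i2, the form of subunit 4 typical of lung and linked to low oxygen, was at 5.98 and 8.04 CPM in cAMP, 7.94 and 9.33 in 4OHT and 5.04 and 3.21 in PD+LY. The PD+LY libraries lay below all the others. It fell by 1.07 ± 0.26 against 4OHT (adjusted p = 0.0123), the only subunit past 2-fold in this comparison. Its share of the counts of Cox4i1 and Cox4i2 was 1.49% and 1.86% in cAMP, 1.81% and 2.03% in 4OHT and 1.15% and 0.648% in PD+LY, with exact 95% binomial intervals of 0.936 to 1.40% and 0.501 to 0.824% in PD+LY. The counts of the calls again moved with single libraries: those that fell numbered 1 without 4OHT replicate 1, 0 without 4OHT replicate 2 and 10 without PD+LY replicate 2, and those that rose 0, 1 and 4.

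**Figure D2:**
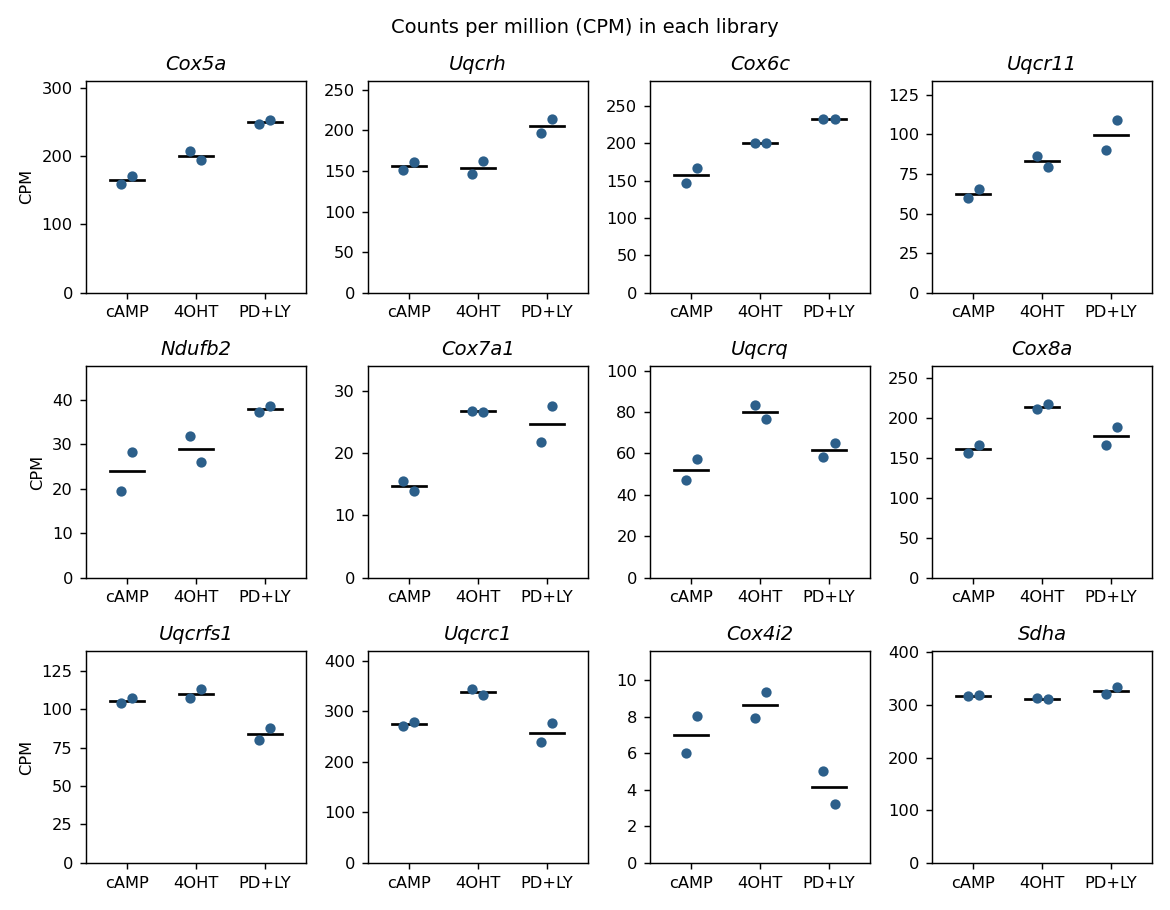
CPM (vertical axes, from 0) of 12 subunit genes in the 3 groups. Points are the 2 libraries of a group and bars their mean. Cox5a, Uqcrh, Cox6c, Uqcr11 and Ndufb2 are highest in PD+LY, Uqcrq and Cox8a are highest in 4OHT, Uqcrfs1 and Cox4i2 are lowest in PD+LY, and Sdha spans only 311 to 334 CPM.

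The third comparison set organoids given 4-hydroxytamoxifen and inhibitors against the cAMP group, which the first comparison also used. Here 26 of 65 subunit genes rose and 2 fell, shares of 40.0% and 3.08% against 12.1% and 13.7% of all genes. The median was 0.24 against 0 for all genes. At 2-fold, 2 rose and 0 fell, against 3.00% and 6.24% of all genes. The changes were small: of the 26, the 24 with a mean above 10 CPM in cAMP rose by 1.26 to 1.68-fold. In all 26 the PD+LY libraries lay above the cAMP libraries, which the call itself makes likely. Without overlap, 45 of the 65 subunit genes and 4609 of all 15256 genes tested lay above.

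The rise was uneven within complex I. Of its accessory subunits 14 of 28 tested rose, while 0 of the 7 core subunits did, whose log2 fold changes ran from -0.03 to 0.24. The difference between these shares was not tested. Transcript length varied as well, and the core subunits ran from 758 to 2590 bases. In this comparison 21 of the 38 subunit genes under 800 bases rose and 1 fell, while 0 of the 11 of 1500 to 3000 bases were called. The split by part of the complex was not separated from length. Ndufb2, an accessory subunit of the membrane arm, was at 19.6 and 28.2 CPM in cAMP, 31.9 and 26.1 in 4OHT and 37.2 and 38.7 in PD+LY. The cAMP and 4OHT libraries overlapped, and the PD+LY libraries were above both. It rose by 0.66 ± 0.17 (edgeR adjusted p = 0.0138); its exons overlap Braf in part, and reads of both genes cannot be told apart there. Ndufa2 (0.61), Ndufb4 (0.59), Ndufb10 (0.57), Ndufa3 (0.55), Ndufc1 (0.54), Ndufa12 (0.47) and Ndufb9 (0.46) followed, with edgeR adjusted p-values of 0.00156 to 0.00731. Ndufs1, a core subunit that holds iron-sulphur clusters, was at 106 and 92.8, 103 and 104, and 107 and 116 CPM. Its groups overlapped except that PD+LY lay above the others.

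Complex III rose in 3 of 9 genes and fell in 1. Uqcr11, its smallest subunit, was at 59.9 and 65.2 CPM in cAMP, 86.6 and 79.4 in 4OHT and 89.9 and 109 in PD+LY. The 3 groups did not overlap, and it rose by 0.67 ± 0.12 (adjusted p = 0.00148). Uqcr10 rose by 0.53 and Uqcrh by 0.40, with edgeR adjusted p-values of 0.0051 and 0.0101. Uqcrfs1 fell by 0.33 ± 0.10 (adjusted p = 0.0258), which was lost when edgeR or DESeq2 was fitted to the 2 groups alone (adjusted p = 0.063 and 0.0904).

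Complex IV rose in 8 of 17 genes and fell in 1. Cox5a rose by 0.59 ± 0.09 (adjusted p = 0.000553), the lowest adjusted p of any subunit here. Cox6c, a small membrane subunit, was at 147 and 167, 200 and 200, and 232 and 232 CPM. Its 3 groups did not overlap, and it rose by 0.56 ± 0.09 (adjusted p = 0.00105). Cox7a1 rose by 0.75 ± 0.15 (adjusted p = 0.00427), Cox6a1 by 0.49 (adjusted p = 0.0106), Cox5b by 0.35 (adjusted p = 0.0156) and Cox7c by 0.34 (adjusted p = 0.0118). The Cox5b call was lost with DESeq2 on the 2 groups alone (adjusted p = 0.0551). Cox4i2 fell by 0.77 ± 0.26 (adjusted p = 0.0483), which was lost with DESeq2 on 6 libraries (adjusted p = 0.0648) and with edgeR or DESeq2 on the 2 groups alone (0.093 and 0.148). Cox4i1, the broadly expressed subunit 4, was at 396 and 424, 430 and 451, and 433 and 492 CPM and was not called.

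The 2 genes past 2-fold were complex IV forms typical of testis, and both were scarce. Cox7b2 had 14 and 20 counts in cAMP, 29 and 30 in 4OHT and 76 and 49 in PD+LY, and rose by 1.74 ± 0.39 (adjusted p = 0.00697). Cox8c had 2 and 3 counts in the cAMP libraries, at or under the floor of 3 counts a library, so its call (adjusted p = 0.0285) is given without a fold. With DESeq2 or without the filter on low counts, 1 gene rather than 2 passed 2-fold. Of 6 germ cell markers 4 were tested, and in PD+LY against cAMP 1 (Dazl) rose and 1 (Sycp3) fell. Dazl was at 966 and 1058 counts in cAMP, 2394 and 2434 in 4OHT and 6648 and 5566 in PD+LY, Ddx4 at 248 to 355 counts in all libraries, and Prm1 and Tnp1, markers of late sperm cells, at 0 to 6. The 6 markers summed to 83.0 to 97.9, 163 to 193 and 293 to 365 CPM, a sum carried by Dazl. Their part in the Cox7b2 and Cox8c results was not tested.

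Complex II had 1 call in this comparison. Sdhb, its iron-sulphur subunit, was at 84.8 and 98.2 CPM in cAMP, 115 and 112 in 4OHT and 111 and 124 in PD+LY. Both treated groups lay above cAMP, and it rose by 0.36 ± 0.11 in PD+LY (adjusted p = 0.0245), which was lost with edgeR or DESeq2 on the 2 groups alone (adjusted p = 0.0515 and 0.0673). Sdha, the flavin subunit, was at 317 and 319, 313 and 311, and 321 and 334 CPM. The groups of Sdha did not overlap, but no comparison was called and all libraries were close. The count of genes that rose in PD+LY against cAMP was 10 without cAMP replicate 1 and 19 to 26 without any other library. Among the 26, 7 had neither a look-alike pseudogene nor an exon overlap, of 27 such genes tested.

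Shares within pairs of isoforms do not depend on the scaling of the libraries. Cox7a1 took 10.3% and 9.80% of the counts of Cox7a1 and Cox7a2 in cAMP, 15.6% and 17.3% in 4OHT and 12.6% and 15.8% in PD+LY. The exact 95% binomial intervals of the cAMP libraries, 9.10 to 11.6% and 8.74 to 10.9%, ended below those of the 4OHT libraries, which began at 14.2% and 15.9%. Cox7b2 took 0.500% and 0.610%, 1.03% and 0.997%, and 2.13% and 1.43% of the counts of Cox7b2 and Cox7b. Cox6b2, a form typical of testis, took 24.1% to 29.8% of its pair in all 6 libraries, and the 3 groups overlapped. Cox6a2 and Cox8b, muscle forms, had 0 to 7 and 0 to 2 counts a library. These intervals cover counting error only.

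**Figure D3:**
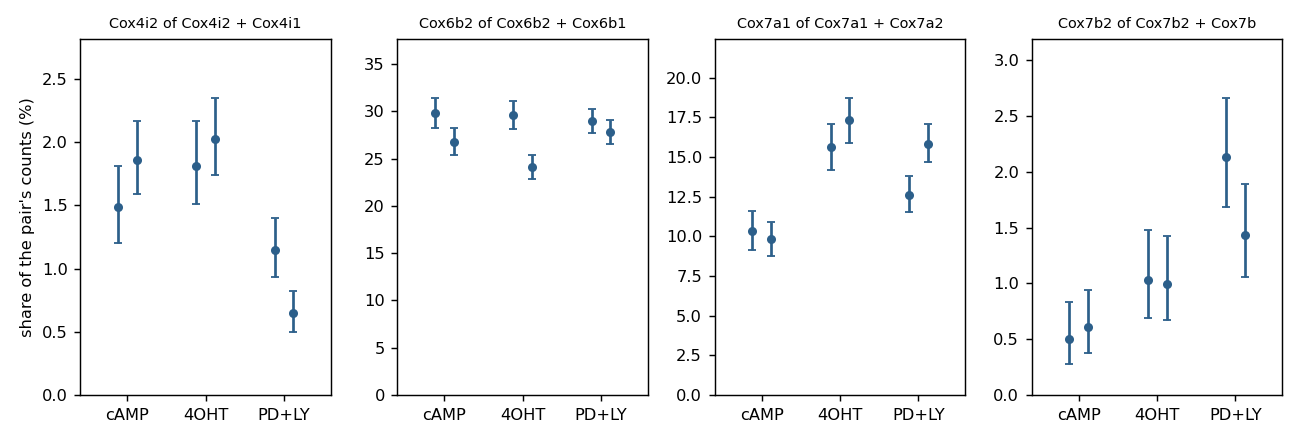
Share of the counts of a pair of complex IV isoforms (vertical axes, percent, from 0) taken by the tissue-restricted form, for each library in the 3 groups. Points are libraries and bars exact 95% binomial intervals. The Cox4i2 share is lowest in PD+LY, the Cox7a1 share is lowest in cAMP, the Cox7b2 share is highest in PD+LY and the Cox6b2 share overlaps between groups.

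The length of the transcript moved with these results. Among all other genes tested, those with transcripts under 800 bases had a median of 0.13 in 4OHT against cAMP and those over 3000 bases -0.07, and in PD+LY against 4OHT the order was turned, with -0.11 and 0.06. In PD+LY against cAMP the medians were 0.02 and 0. The subunit genes are mostly short, with 38 of 65 under 800 bases, and these 38 had medians of 0.29, 0.09 and 0.35 in the 3 comparisons. The 11 subunit genes of 1500 to 3000 bases had medians of 0.05, -0.09 and 0.01, and 1 gene was longer. After the length trend over all genes was removed, an alternative chosen after seeing the data, 3 subunit genes rose and 0 fell in the first comparison, 10 and 3 in the second, and 23 and 2 in the third. The shares that rose were 4.62%, 15.4% and 35.4%, beside 4.36%, 11.0% and 12.6% of all genes with the trend removed, so that the first lay at the background. Thus the counts of the first and second comparisons moved with the trend by more than 1.5 times and that of the third did not.

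**Figure D4:**
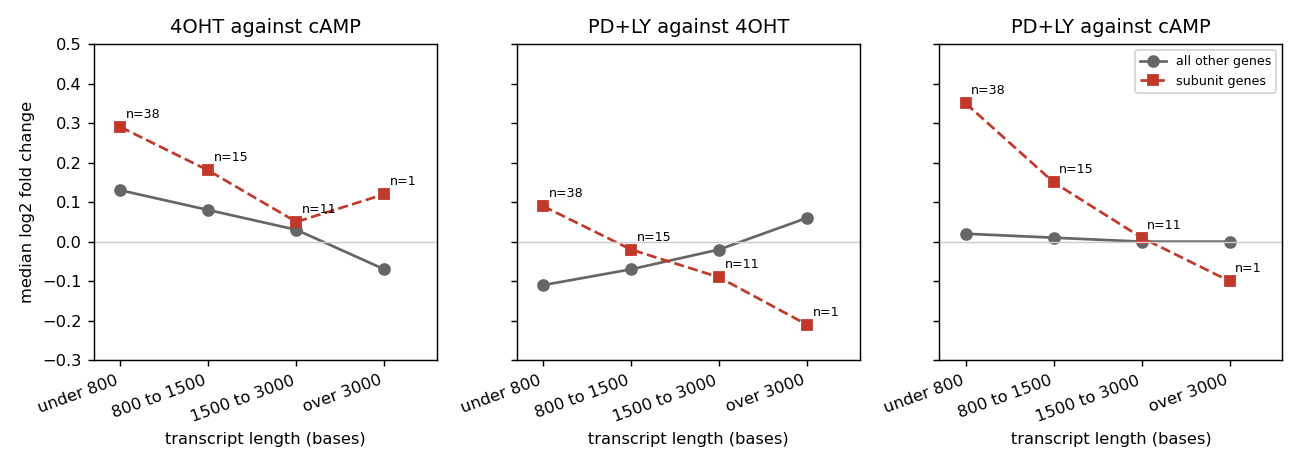
Median log2 fold change (vertical axis) by transcript length class (horizontal axis, bases) for subunit genes (squares, number of genes beside each) and for all other tested genes (circles). In PD+LY against cAMP the other genes stay between 0 and 0.02 while the subunit genes under 800 bases reach 0.35. The class over 3000 bases holds 1 subunit gene.

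Genes around the chain were read from lists chosen by function, and their counts stand beside the shares of all genes given above for each comparison. Of the 17 ATP synthase genes 1 rose in 4OHT against cAMP (Atp5h, 0.35), 1 fell when PD+LY was set against 4OHT (Atp5e, fell by 0.40) and 3 rose in PD+LY against cAMP (Atp5g1, Atp5j2 and Atp5j, by 0.39, 0.37 and 0.32). With the length trend removed Atp5h, Atp5g1 and Atp5j lost their calls (adjusted p = 0.229, 0.0518 and 0.102), and Atp5j also with edgeR or DESeq2 on the 2 groups alone (0.0743 and 0.107). Of 40 tested assembly factors 2 rose in 4OHT against cAMP, 1 went up and 1 down in PD+LY against 4OHT, and 5 went up and 1 down when PD+LY was set against cAMP, so that the shares that rose, 5.00%, 2.50% and 12.5%, were near or below those of all genes. Ndufaf8, needed to build complex I, was at 4.28 and 5.90 CPM in cAMP, 11.6 and 10.3 in 4OHT and 7.03 and 11.5 in PD+LY. The treated groups lay above cAMP, and it rose by 1.09 ± 0.26 in 4OHT (adjusted p = 0.024). Ecsit, another complex I assembly factor, was at 30.3 and 30.6, 29.4 and 31.2, and 19.6 and 19.5 CPM. It was lowest in PD+LY and fell by 0.63 ± 0.13 against 4OHT (adjusted p = 0.00421).

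Of the 78 mitochondrial ribosomal protein genes 1 rose in 4OHT against cAMP, 2 fell with the inhibitors against 4OHT, and with the inhibitors against cAMP 6 rose and 1 fell. The 7.69% that rose in the last comparison lay below the share of all genes. Of 17 genes of the citric acid cycle and pyruvate dehydrogenase, 2 rose, 2 fell, and 2 rose and 3 fell in the same order, which is 11.8% up in the first, 11.8% down in the second, and 11.8% up and 17.6% down in the third. Cs, citrate synthase, was at 449 and 449 CPM in cAMP, 499 and 500 in 4OHT and 338 and 369 in PD+LY, and fell by 0.50 ± 0.08 in PD+LY against 4OHT (adjusted p = 0.00159). Sucla2, which makes part of succinyl-CoA ligase, rose by 0.43 in 4OHT and by 0.66 in PD+LY against cAMP (adjusted p = 0.0146 and 0.000322).

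Of 18 regulators of mitochondrial biogenesis 0 were called in 4OHT against cAMP, where 2 passed an unadjusted p of 0.05. With the inhibitors, 1 rose and 2 fell against 4OHT, and 2 rose and 2 fell against cAMP, shares of 5.56% and 11.1%, and 11.1% each way. Gabpa, the DNA-binding part of GABP, was at 129 and 109 CPM in cAMP, 118 and 108 in 4OHT and 178 and 153 in PD+LY. The PD+LY libraries stood above the rest, and it rose by 0.56 ± 0.11 against 4OHT (adjusted p = 0.00496). Its partner Gabpb1 fell by 0.36 ± 0.11 in the same comparison (adjusted p = 0.0362), which was lost with edgeR or DESeq2 on the 2 groups alone (adjusted p = 0.0543 and 0.0686). Ppargc1b, a coactivator of respiratory genes, was at 8.99 and 8.87, 9.94 and 10.2, and 5.55 and 6.08 CPM, and fell by 0.79 ± 0.19 against 4OHT (adjusted p = 0.0104). Nrf1 was at 52.2 to 64.0 CPM in all libraries and was not called. Of 15 genes of cytochrome c and ubiquinone synthesis 2 (13.3%) rose in each of the last 2 comparisons and 0 in the first. Cyct, the testis form of cytochrome c, was at 19.4 and 17.0, 18.1 and 19.7, and 29.2 and 28.4 CPM, and rose by 0.61 ± 0.14 in PD+LY against 4OHT (adjusted p = 0.00869).

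Among the 22 subunit genes that rose in PD+LY against cAMP and had a promoter in the table, 22.7% held the GABP letters and 31.8% the NRF1 letters, and among the 29 other tested subunit genes with a promoter 20.7% and 27.6% did.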

How the data were processed

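The authors trimmed paired-end reads with Trimmomatic, mapped them to mm10 with HISAT2 and counted them per gene with HTSeq without strand, although the library kit keeps strand. The deposited values are these raw counts, and the annotation behind them was not given in the sources used here. RefSeq promoters of 1 chromosome were left out. Groups were taken from the sample titles. Genes were kept with edgeR's filterByExpr (minimum count 10, minimum total 15) and normalized by TMM, and the 3 groups were fitted together in edgeR 4.0.16 (R 4.3.3) with Benjamini-Hochberg adjustment over all genes tested. The study itself used DESeq2 (version 1.42.0 served here as an alternative). CPM were computed with TMM library sizes, and lengths are those of the shortest coding APPRIS-principal transcript of GENCODE M21, used after exon unions proved inflated for several small subunits; by exon union other genes had the highest level in complexes I, III and IV. Alternatives were other scalings, filters and tools, a replicate block, and leaving out each library. Genes were named as core catalytic subunits, tissue-restricted isoforms with their partners, every member called at 2-fold, the 5 largest called changes in each direction, the highest and lowest per kb, and the 3 largest called changes of each related list. Other genes named were chosen after their values were seen. Members and lists were chosen with earlier results of these data known. The scripts were tested on simulated data. Floors of 3 counts and intervals cover counting error only.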

Additional observations from a re-analysis of the deposited data

How the results depend on the processing

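The length and GC trend alternatives were chosen after seeing the data. The direction of the 75 called fold changes followed held in all alternatives that gave a value, and 212 of 1125 repeats lost the call, most of them where a library was left out and its group rested on 1 sample assumed to vary like the others. The number of subunit genes that rose in 4OHT against cAMP was 10 and became 19 without a filter on low counts, 23 with edgeR and 22 with DESeq2 on the 2 groups compared, 3 with the length trend removed (median 0.10) and 0 to 22 with a library left out. With the GC trend removed, 15 subunit genes rose in 4OHT against cAMP (median 0.2). In PD+LY against 4OHT the genes that rose numbered 10 (15.4%) with the length trend and 9 (13.8%) with the GC trend removed. Of all genes 11.0% and 14.7% rose in these fits. Those that fell numbered 3 and 5, beside 13.1% and 15.5% of all genes. The 1 past 2-fold became 0 with either trend removed. The counts of this comparison also moved with a library left out. In PD+LY against cAMP the genes that rose numbered 10 to 26 with a library left out. Those that fell numbered 0 with edgeR or DESeq2 on the 2 groups, 1 with DESeq2 on 6 libraries and 0 to 2 with a library left out. The genes past 2-fold upwards numbered 1 without the filter, with at least 10 counts in every library and with DESeq2 on 6 libraries or on the 2 groups, and 0 to 2 with a library left out; those past 2-fold downwards numbered 0 to 1. The cause of these moves was not tested. Apart from the length and GC trends, these counts are given, here and above, without the share of all genes in the same fit. They show how the counts moved and not how subunit genes compare with all genes.

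Same-numbered replicates deviated from their group means with correlations of 0.07, 0.21 and 0.06. The labels do not say whether they were paired, and such low values cannot decide it. With the replicate as a block, 22 subunit genes rose in 4OHT against cAMP, 5 went up and 6 down for PD+LY against 4OHT, and 28 up and 3 down for PD+LY against cAMP. The share of all genes called in that fit is not given here.

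Per kb of transcript the Cox6b2 shares became 36.1% and 32.7% in cAMP, 35.8% and 29.7% in 4OHT and 35.1% and 33.9% in PD+LY. The Cox7a1 shares became 16.1% and 15.4%, 23.7% and 25.9%, and 19.5% and 24.0%, and the Cox7b2 shares 0.919% and 1.12%, 1.89% and 1.83%, and 3.86% and 2.61%. A share without mitochondrially encoded genes was not run, since those genes were not analysed here.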
